A study of Xenopus laevis with 5 samples.

Results

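DNA repair genes encode the proteins that find, mark and mend damaged or mismatched DNA. The genes described here were taken by name from the arrays' own accessions. They were all gene probes for a symbol that begins with fanc, xrcc, ercc or msh, and the probes for a set of named sensor, nuclease, polymerase and ligase genes such as atm, brca1, parp1, polb and wrn. The choice was by name, not by a measured value, although earlier results of these data were known when it was made. It gave 44 of the 10007 named genes on the array, measured by 57 of its 43653 gene probes. No probe was paired here with xpc, brca2, rad54l or ogg1, and these 4 were not analysed. The samples were testes of male Xenopus laevis, the African clawed frog. The animals had been exposed from the tadpole stage NF 46 for 90 days to 100 µg/L of simazine, a chlorotriazine herbicide, or to 0 µg/L as controls, with no other genotype or treatment given in the labels. The simazine group had 3 arrays and the control group had 2, each with the Cy3-labelled RNA of 1 testis sample on a one-colour Agilent array. The labels do not say that the testes came from separate animals, so the p-values cover the spread among these 5 samples only, part of which may be technical.

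Cells keep several repair systems for different lesions. Base excision repair removes small damaged bases, nucleotide excision repair removes bulky lesions, and mismatch repair corrects copying errors. Breaks of both strands are joined end to end or copied from an intact sister by recombination, and the Fanconi anaemia proteins open crosslinks between the strands. In the testis the recombination proteins also serve meiosis, in which germ cells make and mend programmed DNA breaks. The frog carries a doubled genome, and the endings .L and .S name the copies of a gene (homeologs) on its long and its short chromosome set.

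Levels are given as log2 of a spot's processed signal minus log2 of its array's 75th percentile, so that 0 is a signal at that percentile and 1 is a signal 2-fold above it. A difference is always simazine minus control on this log2 scale. The 75th percentile itself was 2476, 4883 and 1564 signal units on simazine arrays 1, 2 and 3 and 6693 and 2380 units on control arrays 1 and 2. The scanner software called between 69.1% and 85.1% of gene spots well above background. Simazine 2 and control 1 shared 1 scan image and are called slide 1. Simazine 1, simazine 3 and control 2 shared another and are called slide 2. Markers of Sertoli and Leydig cells, the supporting and hormone-producing cells of the testis, were present on every array, although wt1.S was well above background on 4 only. The sex-determination factor dmrt1.S was at 4.04, 3.48 and 3.82 in simazine testes and at 3.38 and 3.45 in control testes. Of 12 such genes 0 passed the test, and 5 were below 0 and 7 above, with a median difference of 0.08. Of 28 tested oocyte marker genes, 13 were lower in simazine testes at an adjusted p under 0.05, against 0.4% of all tested probes in either direction, with a median difference of -3.33 over the list. Their summed signal was 327, 288 and 158 times the 75th percentile on simazine arrays and 334 and 387 times on control arrays. Most of that sum came from ybx2.L, dazl.L and both copies of ccnb1.2, none of which passed the test (differences of 0.02 for ybx2.L and -0.38 for dazl.L). The sum thus does not follow the 13 lower markers, such as pou5f3.3.L (difference -6.01). The marker zpax.L was well above background on 3 of the 5 arrays. In whole testes, fewer cells of a type and less RNA per cell cannot be told apart.

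Of the 57 repair probes, 16 (28.1%) lay in distorted areas of the arrays, where surrounding spots of any gene deviated together by more than 0.5 on at least 1 array. Among all gene probes the share was 25.5%. These 16 probes were left out of the main test. That left 41 tested probes for 35 genes, and none was removed for being dim. Of the 41 probes, 39 were well above background on all 5 arrays, and atm.L and fancl.L were so on 3. None of the 35 tested genes passed the test between simazine and control testes, and 9 genes had no tested probe. The test was limma's moderated test, and p-values were adjusted over all 26995 tested probes by the Benjamini-Hochberg method. The number of repair probes past an adjusted p of 0.05 was 0 of 41, and the smallest adjusted p was 0.9999. Over all tested probes 0.4% passed, 4 of them higher and 104 lower in simazine testes. At that share a count of 0 among 41 probes was likely from the start. At an unadjusted p under 0.05 the count was likewise 0 of 41, against 3.85% of all probes. With a fold of 2 required as well it was 0, against 3.05%.

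The repair differences were centred close to 0. The median was 0.09, against 0.03 over all tested probes, and the range was -0.74 to 1.08. Of the 41 differences, 24 (58.5%) were above 0 in the main fit, against 53.9% of all probes. The median size of a difference was 0.227, against 0.248 over all probes, with a median standard error of 0.37. A difference of under 2-fold was measured for 40 of the 41 (97.6%), against 93.8% of all probes. The main fit, in which slide differences count as error, fixed few of them tightly. In that fit the 95% interval lay wholly within a 2-fold change for 13 probes (31.7%, against 21.4% of all probes). For the other 28 it reached past a 2-fold change in at least 1 direction. With slide as a block, so that arrays were compared within slides, the standard error was smaller for each of the 41 probes. This included probes on which the slides overlapped, such as that of lig4.L (0.27 in the main fit, 0.16 with the block). Intervals within a 2-fold change were not counted for that fit. All simazine arrays were above both control arrays for 3 probes, those of lig4.L, xrcc4.L and ercc8.S, against 7.51% of all probes. All were below both for 1, that of rpa3.S, against 6.86%. With slide as a block the median repair difference was 0.12. In that fit the signs of apex1.L, blm.S, xrcc3.L, atm.L, chek1.S, mre11.L, ercc1.L and the brighter xrcc5.L probe changed from below 0 to above. None of the tested repair probes changed the other way, so the share above 0 depended on the slide term. The share above 0 over all probes was not computed for it. The pathway counts and medians below are from the main fit.

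**Figure D1:**
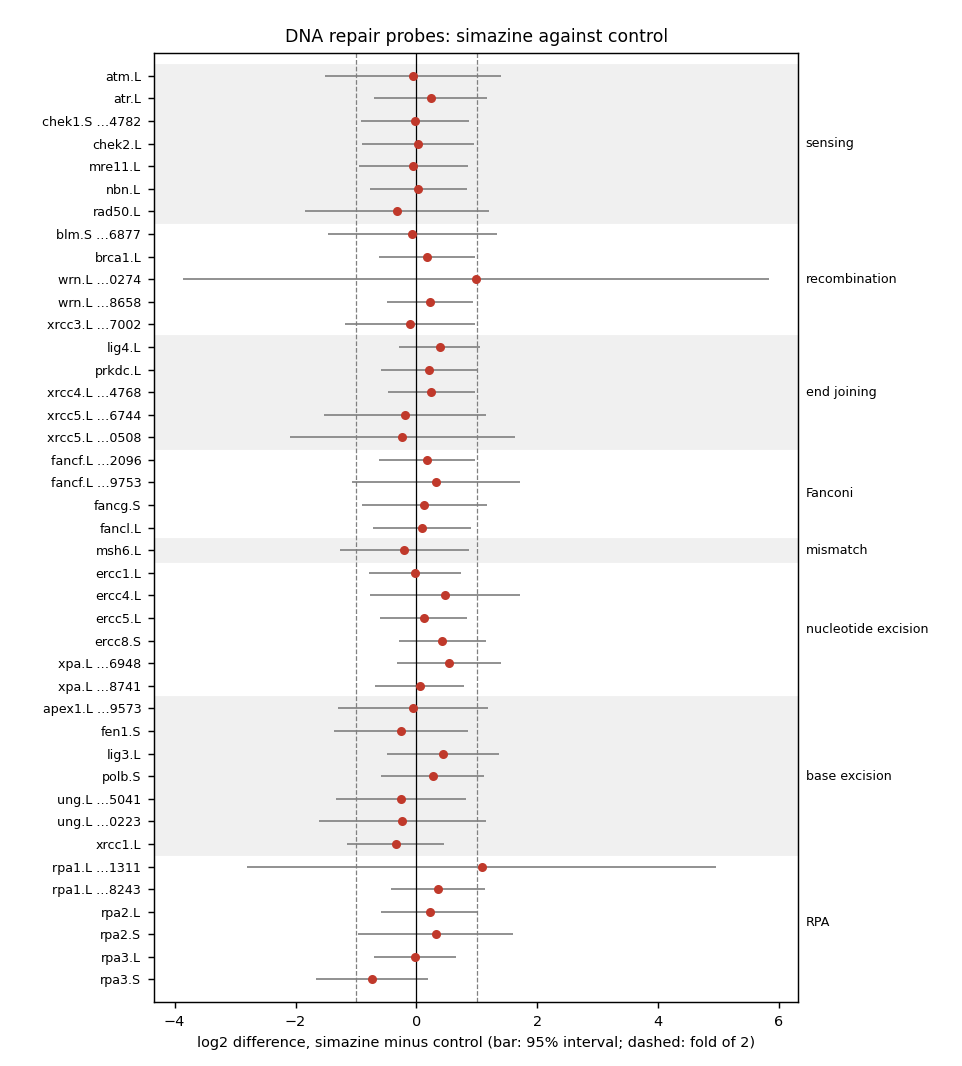
Log2 difference, simazine minus control, of the 41 tested DNA repair probes (points) with 95% intervals from limma (bars), grouped by pathway; dashed lines mark a fold of 2, and a label's last 4 digits name the probe where a gene has several. Every interval includes 0, and the widest are those of a wrn.L probe and an rpa1.L probe.

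The 7 tested probes for damage sensors and checkpoint kinases had a median difference of -0.02 and a range of -0.32 to 0.24, and none passed the test. For 4 of them the 95% interval lay within a 2-fold change. The kinase ATR, which responds to stalled replication, is encoded by atr.L, and its probe read 1.01, 1.52 and 0.93 in simazine testes and 1.27 and 0.57 in control testes. The groups overlapped, and the difference was 0.24 (SE 0.37, 95% interval -0.70 to 1.17). The MRE11, RAD50 and NBS1 proteins form the complex that binds broken ends. The mre11.L probe read 1.41, 2.01 and 1.33 in simazine testes and 1.88 and 1.39 in control testes, a difference of -0.05 (SE 0.36). The nbn.L probe, for NBS1, read 3.40, 3.77 and 3.14 in simazine testes and 3.47 and 3.34 in control testes, a difference of 0.03 (SE 0.32). For both the 95% interval lay within a 2-fold change. The third subunit was less closely fixed in the main fit: rad50.L read -2.24, -0.98 and -2.51 in simazine testes and -1.03 and -2.15 in control testes. Simazine 2 and control 1, both on slide 1, were the high arrays, and the difference was -0.32 (SE 0.61, 95% interval -1.85 to 1.21). With slide as a block it was -0.11 (SE 0.19). The checkpoint kinases that act after the sensors differed by -0.02 (chek1.S, SE 0.36) and 0.02 (chek2.L, SE 0.37), each with an interval inside a 2-fold change. The kinase gene atm.L was near the detection limit, with levels of -6.75 to -5.27 in simazine testes and -5.62 and -6.61 in control testes.

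The recombination genes gave 5 tested probes with a median difference of 0.18. The breast cancer gene brca1.L, whose product promotes recombination at breaks, was well above background on every array. It read 4.25, 3.84 and 3.98 in simazine testes and 3.60 and 4.09 in control testes. The ranges overlapped, and the difference was 0.18 (SE 0.32, 95% interval -0.63 to 0.98), within a 2-fold change. The RecQ helicase genes are wrn and blm. For wrn.L the brighter probe, A_10_P138658, read 2.36, 2.62 and 2.70 in simazine testes and 2.25 and 2.41 in control testes, a difference of 0.23 (SE 0.29, 95% interval -0.49 to 0.94). The tested blm.S probe differed by -0.06 (SE 0.56), and the tested probe of xrcc3.L, another recombination gene, by -0.10 (SE 0.43). For both genes the tested probe was the dimmer one, and the brighter probe lay in a distorted area. Neither tested probe had an interval inside a 2-fold change in the main fit. With slide as a block the differences were 0.12 (SE 0.21) for blm.S and 0.03 (SE 0.16) for xrcc3.L.

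In end joining, 3 of 5 tested probes were above 0, with a median difference of 0.21. DNA ligase IV, which seals the joined ends, is encoded by lig4.L. Its probe read 0.30, 0.33 and 0.39 in simazine testes and 0.02 and -0.11 in control testes. All simazine values were above both control values and the arrays of a group were close together. The difference was 0.38 (SE 0.27, 95% interval -0.29 to 1.06), with an unadjusted p of 0.207 in limma, whose moderated error draws on all probes. It was 0.31 within slide 1 and 0.46 within slide 2. The ligase's partner xrcc4.L read 0.25, -0.07 and -0.05 in simazine testes and -0.11 and -0.29 in control testes (probe A_10_P004768). These groups just failed to overlap, and the difference was 0.25 (SE 0.29, 95% interval -0.47 to 0.97). The catalytic subunit of the DNA-dependent kinase, prkdc.L, differed by 0.21 (SE 0.32). The Ku80 subunit, which holds the broken end, is encoded by xrcc5.L. Its brighter probe read 0.97, 2.62 and 0.89 in simazine testes and 2.51 and 0.93 in control testes. The 2 slide 1 arrays were the high ones, and the groups overlapped fully (difference -0.23, SE 0.74). With slide as a block the difference was 0.04 (SE 0.16).

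**Figure D2:**
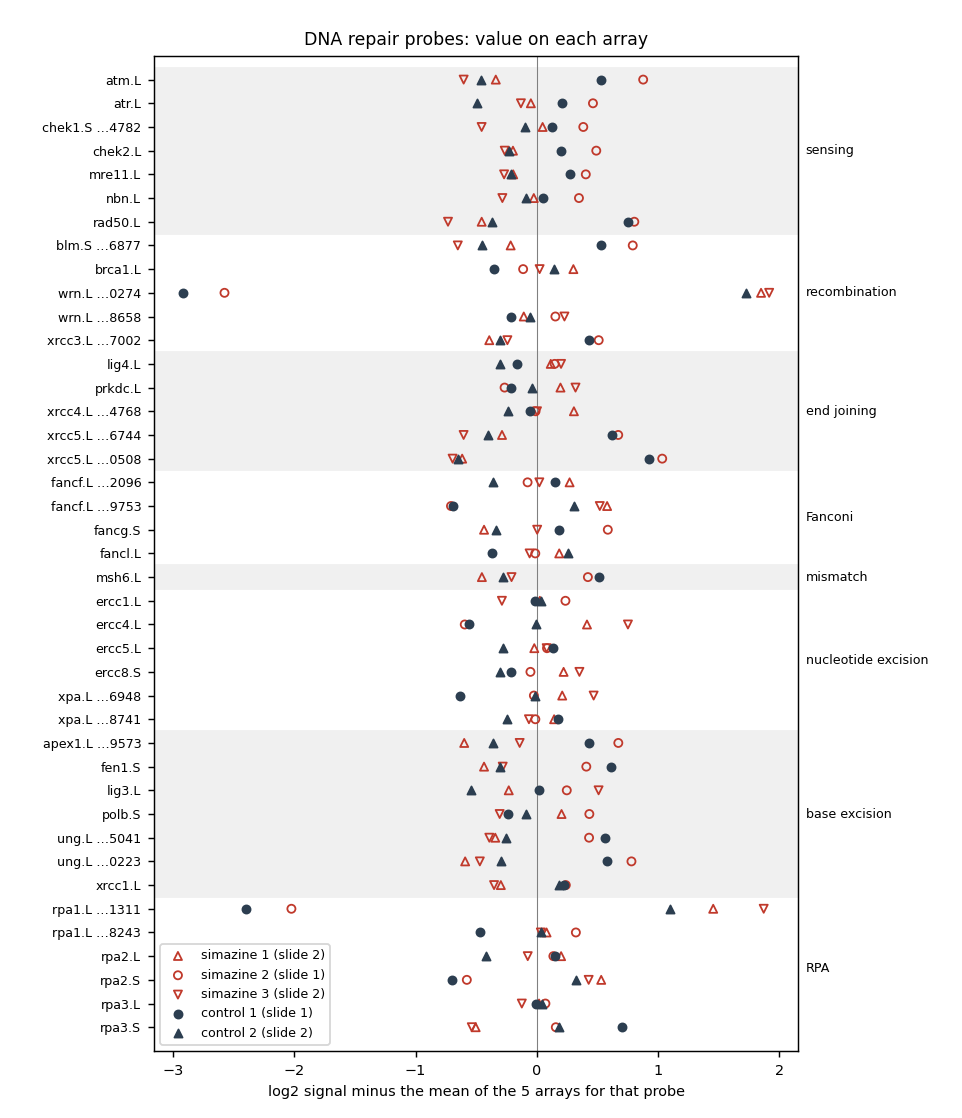
Level of each tested DNA repair probe on each array, as log2 signal minus that probe's mean over the 5 arrays; open red symbols are simazine testes, filled dark symbols control testes, circles slide 1 and triangles slide 2. In most rows the circles lie apart from the triangles, while red and dark symbols are mixed.

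The Fanconi genes had 4 tested probes for 3 genes, all with a difference above 0 and a median of 0.15, none past the test. Under some alternatives to the main fit the difference of each gene was below 0, down to -0.23 for fancf.L, -0.14 for fancg.S and -0.22 for fancl.L. FANCF, FANCG and FANCL are parts of the core complex, in which FANCL is the ubiquitin ligase. The brighter fancf.L probe (A_10_P002096) read 1.72, 1.37 and 1.47 in simazine testes and 1.60 and 1.08 in control testes, a difference of 0.18 (SE 0.32, 95% interval -0.61 to 0.97). The other fancf.L probe differed by 0.33 (SE 0.55). The fancg.S probe was dim, at -5.05, -4.03 and -4.61 in simazine testes and -4.44 and -4.95 in control testes, and differed by 0.13 (SE 0.41). For fancl.L the levels lay between -7.06 and -6.43 on all arrays, and the difference was 0.09 (SE 0.32). Mismatch repair was represented by msh6.L alone, a subunit of the complex that recognises mispaired bases. It read 2.92, 3.80 and 3.17 in simazine testes and 3.89 and 3.1 in control testes. Each group held 1 high array, both of slide 1, and the difference was -0.20 (SE 0.42, 95% interval -1.26 to 0.86).

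Nucleotide excision repair had 6 tested probes, 5 of them above 0, with a median difference of 0.28. ERCC8, also called CSA, belongs to the ubiquitin ligase that acts where RNA polymerase has stalled at a lesion. The ercc8.S probe read 0.94, 0.67 and 1.07 in simazine testes and 0.51 and 0.41 in control testes, so the groups did not overlap. The difference was 0.43 (SE 0.29, 95% interval -0.29 to 1.16), with an unadjusted p of 0.190 in limma. It was 0.16 within slide 1 and 0.59 within slide 2. XPA checks the lesion before the strand is cut. The dimmer xpa.L probe, A_10_P026948, read -2.31, -2.55 and -2.05 in simazine testes and -3.16 and -2.54 in control testes, a difference of 0.54 (SE 0.34). The brighter one, A_10_P048741, read 0.19, 0.04 and -0.02 in simazine testes and 0.22 and -0.19 in control testes, a difference of 0.05 (SE 0.30). The 2 probes of this gene thus gave different sizes, and neither passed the test. The nucleases that cut on either side of the lesion are encoded by ercc1 with ercc4, and by ercc5. The ercc4.L probe differed by 0.48 (SE 0.49), the ercc1.L probe by -0.02 (SE 0.30) and the ercc5.L probe by 0.12 (SE 0.29). The last 2 had intervals inside a 2-fold change.

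Base excision repair had 7 tested probes, 5 of them below 0, with a median difference of -0.23. The uracil glycosylase gene ung.L opens this pathway. Its brighter probe, A_10_P005041, read 3.60, 4.37 and 3.55 in simazine testes and 4.50 and 3.68 in control testes, a difference of -0.25 (SE 0.43). The second ung.L probe gave -0.23 (SE 0.55). DNA polymerase beta, which fills the gap, is encoded by polb.S and differed by 0.28 (SE 0.34). Its levels were 3.62, 3.85 and 3.11 in simazine testes and 3.17 and 3.32 in control testes, with simazine 3 the lowest of all. The scaffold xrcc1.L read 2.42, 2.95 and 2.36 in simazine testes and 2.94 and 2.90 in control testes. Simazine 2 stood with the controls and the other simazine arrays below them, and the difference was -0.34 (SE 0.32, 95% interval -1.15 to 0.46). Its partner ligase, lig3.L, read 0.83, 1.31 and 1.57 in simazine testes and 1.08 and 0.52 in control testes, a difference of 0.44 (SE 0.37). The protein pair of scaffold and ligase thus had differences of opposite sign, each with a 95% interval that includes 0. The flap nuclease fen1.S differed by -0.26 (SE 0.44). The tested probe of the endonuclease gene apex1.L, the dimmer one of that gene, differed by -0.06 (SE 0.50).

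Replication protein A coats single strands of DNA during replication and repair and has a large, a middle and a small subunit, encoded by rpa1, rpa2 and rpa3. The smallest unadjusted p among the 41 probes belonged to the small subunit's short-chromosome copy. The rpa3.S probe read 0.68, 1.34 and 0.64 in simazine testes and 1.88 and 1.36 in control testes. All simazine values were below both control values, but simazine 2 was close to control 2, and the 2 simazine arrays of slide 2 were the low ones. The difference was -0.74 (SE 0.37, 95% interval -1.67 to 0.19), with an unadjusted p of 0.0993 in limma. Within slide 1 it was -0.55 and within slide 2 it was -0.70. With slide as a block it was -0.63 (SE 0.158), with an unadjusted p of 0.0135 and an adjusted p of 0.286 in limma. In that fit 1 of 41 repair probes had an unadjusted p under 0.05, against 11% of all probes, and 0 passed the adjusted threshold, against 0.956%. The long-chromosome copy rpa3.L varied least over the 5 arrays of the 41 probes, at 1.17, 1.22 and 1.02 in simazine testes and 1.14 and 1.19 in control testes. Its difference was -0.03 (95% interval -0.71 to 0.65). Whether the homeologs differed in response was not tested. Both copies of the middle subunit had probes as well: rpa2.L differed by 0.22 (SE 0.32) and rpa2.S by 0.32 (SE 0.51).

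The arrays of slide 1 and slide 2 differed more than the treatment groups did for most repair probes. For 27 of 41 probes (65.9%) both slide 1 arrays were on 1 side of all slide 2 arrays, against 60.3% of all probes. The slide difference was taken within each treatment and averaged. It was larger in size than the simazine difference with slide as a block for 32 of the 41, and its median size was 0.563. Neither value was computed over all tested probes. The slide difference reached 2-fold for 10 probes, against 25.6% of all probes, and 8-fold for 2, against 1.68%. Those 2 are second probes of genes described above. The wrn.L probe A_10_P000274 read -2.06, -6.48 and -2.00 in simazine testes and -6.83 and -2.18 in control testes, a slide difference of 23.4-fold. The rpa1.L probe A_10_P041311 read -3.32, -6.79 and -2.90 in simazine testes and -7.17 and -3.68 in control testes, a slide difference of 12.0-fold. On both, simazine 2 and control 1 were far below the other 3 arrays, and all 5 spots were unmarked by the scanner software and well above background. The unblocked differences of 0.99 (SE 1.93) and 1.08 (SE 1.55) are the largest of the 41 in size, and with slide as a block they were 0.23 (SE 0.16) and 0.48 (SE 0.21). The other probe of each gene did not separate the slides in this way. The brighter wrn.L probe had a slide difference of 1.02-fold. The other rpa1.L probe, A_10_P188243, read -3.05, -2.81 and -3.1 in simazine testes and -3.60 and -3.1 in control testes, with a slide difference of 1.09-fold and a simazine difference of 0.36 (SE 0.31).

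**Figure D3:**
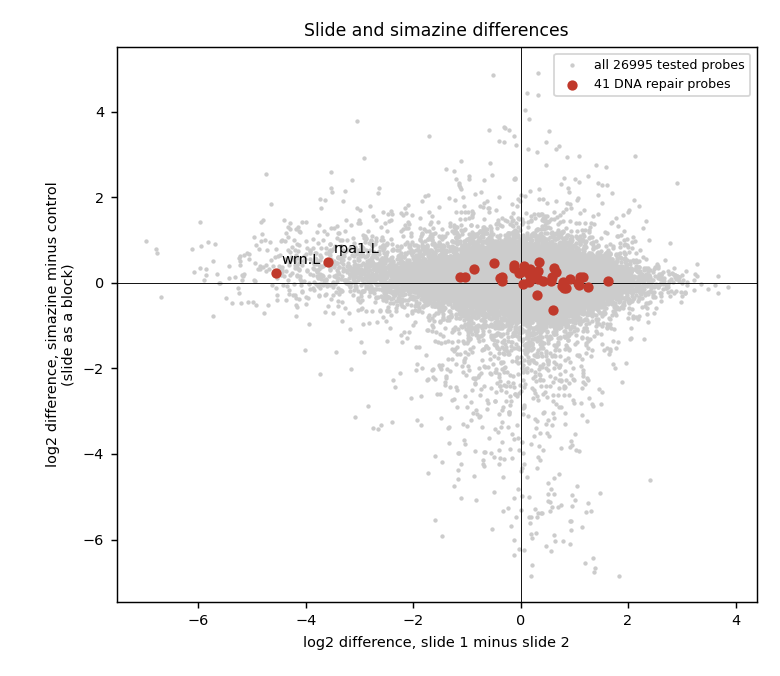
Log2 difference between the slides (slide 1 minus slide 2) against the log2 difference simazine minus control with slide as a block, for the 41 DNA repair probes (red) and all 26995 tested probes (grey). The repair probes lie close to 0 on the vertical axis, from -0.63 to 0.49, and 2 of them, 1 each for wrn.L and rpa1.L, lie far to the left.

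Of the 44 genes, 9 had no probe outside the distorted areas, namely fen1.L, lig1.L, parp1.L, xrcc6.L, fanca.L, fancc.L, fancd2.L, fancd2os.L and rad52.S. For the 16 probes inside these areas the difference is given as measured, beside the difference between the groups of the surrounding spots (a median over 5 rows and 9 columns of spots of any gene) and the difference left after that local deviation was subtracted on each array. As measured, 6 of the 16 differed by 2-fold or more, and the median size was 0.885. After subtraction 4 did, the median size was 0.413, and 12 of the 16 were smaller. Matching counts over all probes in distorted areas were not made, so these are not read as a trait of repair probes. With all spots kept, 5 of the 57 repair probes had an unadjusted p under 0.05, against 8.72% of all probes, and all 5 lay in distorted areas. After subtraction the count was 1 of 57, against 6.56%, and 0 passed the adjusted threshold, against 0.517%.

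Ku70, the partner of Ku80 in end joining, is encoded by xrcc6.L, and its probe gave the only adjusted p under 0.05 among repair probes in any fit. It read 1.71, 1.51 and 1.11 in simazine testes and 3.96 and 4.62 in control testes, with no overlap. As measured, it was 7.17-fold lower in simazine testes (difference -2.84, SE 0.38, adjusted p of 0.049 in limma with no filter on position), in a fit that called 0.671% of all probes lower. The spots around it, of unrelated genes, differed by -1.94 between the groups. After subtraction the difference was -0.90 (SE 0.37, 95% interval -1.85 to 0.05, adjusted p of 0.818 in limma). The fancd2.L probe, for the protein that the Fanconi core complex ubiquitinates, read -5.12, -5.50 and -6.82 in simazine testes and -3.15 and -3.31 in control testes. The groups did not overlap, and simazine 3 was not well above background. Its difference was -2.58 as measured (SE 0.57, adjusted p of 0.149), -1.07 in the surrounding spots and -1.51 after subtraction (SE 0.65, 95% interval -3.16 to 0.14).

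The other members in distorted areas differed in how far their surroundings moved with them. The fanca.L probe, for another core complex subunit, differed by -1.52 as measured, its surroundings by -1.63, and 0.11 was left. The second xrcc3.L probe (A_10_P003569) differed by -1.52, its surroundings by -1.48, and -0.04 was left. These 2 differences were thus matched by the spots around them. For the second apex1.L probe (A_10_P004823), levels were 2.97, 1.01 and 2.46 in simazine testes and -0.55 and 0.48 in control testes. It differed by 2.18 as measured and its surroundings by 0.55. After subtraction 1.63 was left (SE 0.55, 95% interval 0.22 to 3.03), with an unadjusted p of 0.030 and an adjusted p of 0.590 in limma. The apex1.L probe outside these areas gave -0.06, but it was much dimmer, with group means of -2.72 in simazine testes and -2.67 in control testes. The lig1.L probe, for the ligase that joins replicated strands, read 3.38, 1.26 and 0.41 in simazine testes and 1.42 and 1.11 in control testes. Its groups overlapped. Its surroundings differed by -1.11, and the difference was 0.42 as measured and 1.53 after subtraction (SE 0.66). The fen1.L probe spanned -4.03 to -0.41 in simazine testes, against -4.94 and -3.78 in control testes, and differed by 2.24 as measured and 1.17 after subtraction (SE 0.86). The damage sensor parp1.L had 2 such probes, which differed by 0.00 (SE 0.32) and 0.50 (SE 0.31) as measured. Their surroundings differed by 0.46 and 0.42, which left -0.46 and 0.08 after subtraction, and the dimmer probe was well above background on 3 arrays. The brighter parp1.L probe, A_10_P026943, read 2.92, 3.02 and 2.56 in simazine testes and 2.87 and 2.79 in control testes. The remaining probes, those of rad52.S and fancc.L and second probes of blm.S, chek1.S and xrcc4.L, differed by -0.43 to 0.90 as measured and by -0.37 to 0.46 after subtraction. The name rule also took in fancd2os.L by its prefix, and this gene was not grouped with the Fanconi genes. Its 2 probes differed by -0.96 and -0.87 as measured and by 0.02 and -0.98 after subtraction.

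**Figure D4:**
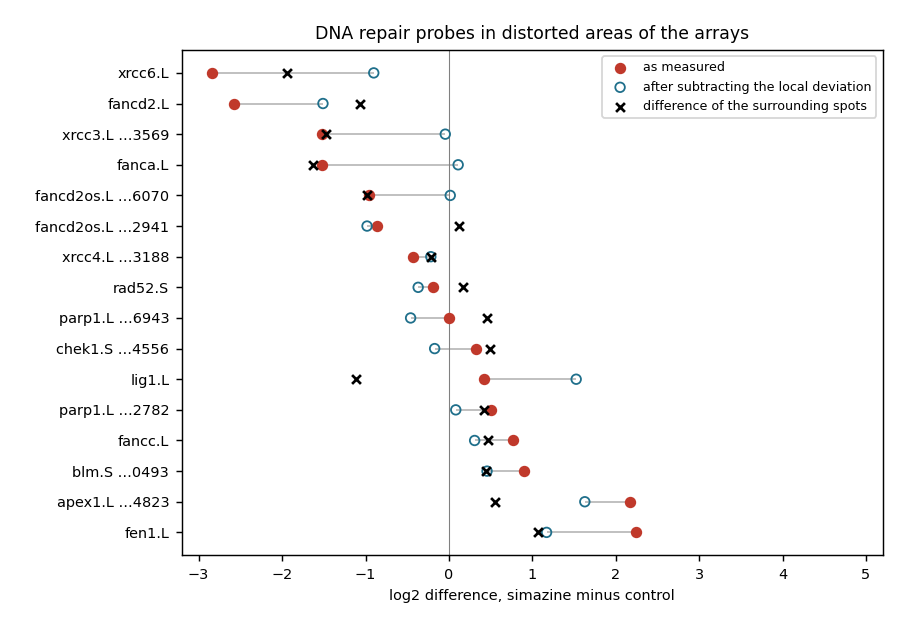
Log2 difference, simazine minus control, of the 16 DNA repair probes in distorted areas of the arrays, as measured (filled circles), after subtracting the local deviation (open circles), with the difference of the surrounding spots (crosses). The xrcc6.L probe is at -2.84 as measured, -1.94 in its surroundings and -0.90 after subtraction.

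The scanner software had marked many repair spots as non-uniform or as outliers, 35 of the 57 on simazine 2 and 37 on control 1, against 8 to 16 on the other arrays. Over all gene spots the marked share was 42.6% on simazine 2, 44.0% on control 1 and 5.78% to 10.0% on the other arrays. Most slide 1 values of repair probes in the main fit thus come from marked spots. On all arrays 9 probes were unmarked. With marked spots left out instead of distorted areas, 44 repair probes could be tested. Of these, 4 had an unadjusted p under 0.05, against 8.5% of all probes, and 0 passed the adjusted threshold, against 0.00314%, with a smallest adjusted p of 0.160 in limma. All 4 were lower in simazine testes and lay in distorted areas, and they were the probes of xrcc6.L, fancd2.L, fanca.L and fancd2os.L (A_10_P076070).

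Further genes of the same pathways, from a list of 108 other repair symbols, were set beside these. The array held 63 of the symbols, and 57 genes for 50 of them were tested. Of these 57 genes, 30 were below 0 and 27 above, with a median difference of -0.02. In the main fit 0 passed the adjusted threshold, and 2 had an unadjusted p under 0.05, both lower in simazine testes, against 3.85% of all probes. The gene that stood apart was dclre1a.L, which encodes SNM1A, a nuclease that trims DNA at crosslinks between strands. It read 0.79, 0.53 and 0.83 in simazine testes and 3.03 and 3.15 in control testes. The arrays of each group lay close together and the groups were far apart, on both slides. It averaged 0.72 ± 0.16 in simazine testes and 3.09 ± 0.08 in control testes (SD), a difference of -2.37 (SE 0.281), or 5.17-fold lower. The adjusted p was 0.0588 in limma, just short of the threshold, and with slide as a block it was 0.0147 for a difference of -2.41. Within slide 1 the difference was -2.50 and within slide 2 it was -2.34, and it was -2.33 after the local deviation was subtracted, with an adjusted p of 0.0904 in limma. The array held 1 probe for this gene, and its spots were marked on control 2, simazine 1 and simazine 3, so that no value was had with marked spots left out. Of the oocyte markers, 27 of 28 were also below 0 and 13 were lower past the threshold, against 0.4% of all probes. Of 36 replication and cell-cycle genes 2 were lower past it, mcm3.L and the cyclin gene ccna1.S. The replication and cell-cycle genes had summed signals of 135, 176 and 107 times the 75th percentile in simazine testes and 233 and 174 times in control testes. Their part in the dclre1a.L difference was not tested.

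The next genes of this list by unadjusted p, 4 of which are given here, had adjusted p-values of 0.9999 in limma. The polymerase delta subunit gene pold2.L differed by -1.33 (SE 0.50), while its second probe, in a distorted area, differed by -0.63. The stress-response gene gadd45g.L differed by -0.85 (SE 0.40). Its second probe, in a distorted area, differed by -1.69 as measured and by 0.17 after subtraction, and the brighter homeolog gadd45g.S differed by 0.26. The gene smc5.S, of the SMC5 and SMC6 complex, differed by 0.72 (SE 0.35). The ubiquitin ligase gene rnf8.L differed by -0.70 (SE 0.49), and its brighter homeolog rnf8.S by 0.38.

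**Figure D5:**
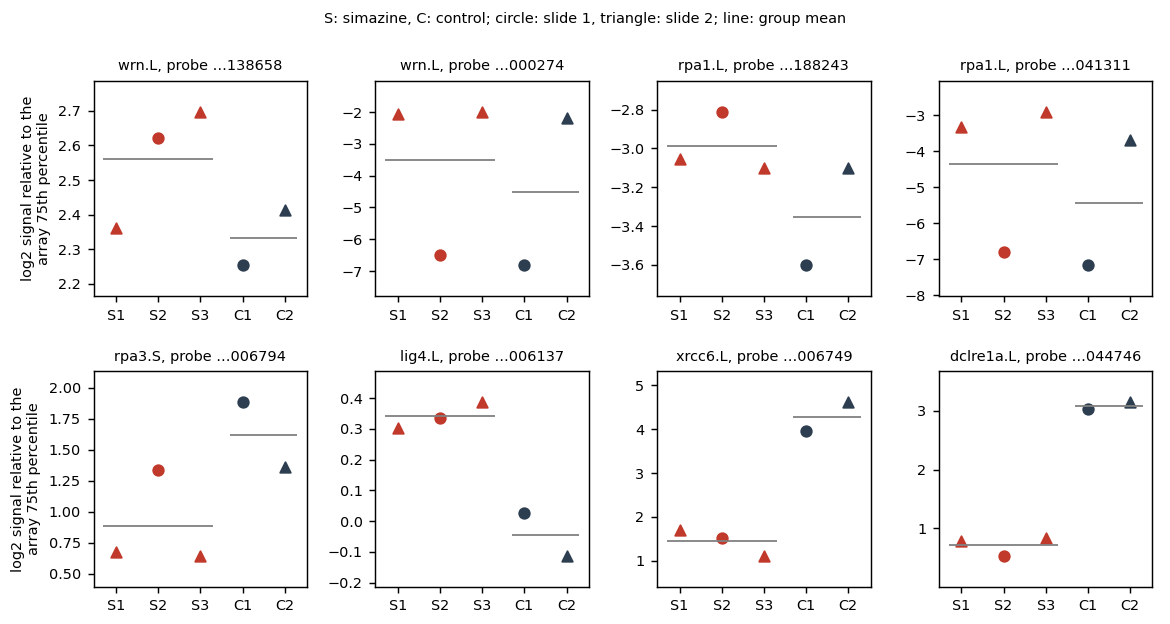
Log2 signal relative to the array's 75th percentile on each array (S, simazine; C, control; circle, slide 1; triangle, slide 2; line, group mean) for 8 probes, each panel with its own vertical range. The second wrn.L and rpa1.L probes follow the slides, while dclre1a.L lies between 0.53 and 0.83 in simazine testes and between 3.03 and 3.15 in control testes.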

How the data were processed

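Total RNA of 5 testis samples was measured on one-colour arrays. The authors deposited scanner tables of linear intensity. Per the file headers these come from Agilent Feature Extraction 10.7.3.1, whose processed signal is background-subtracted and, on slide 2 only, also detrended by a multiplicative surface. The authors also deposited a log2 table of 27228 probes, in which each array's processed signal was shifted down by 1 constant of unknown origin. On the log2 scale the constant was 7.90, 8.65 and 7.25 for simazine 1 to 3, and 9.14 and 7.91 for control 1 and 2. The medians of that table were 0.958, 1.02 and 0.949 for simazine 1 to 3, and 1.06 and 0.951 for control 1 and 2. Of 36331 accessions, 10012 had a symbol in the RefSeq table, which named 16032 of 43653 probes.

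Here, log2 processed signal minus the array's 75th percentile was fitted with limma 3.58.1 (lmFit, eBayes, two-sided) in R 4.3.3, on probes well above background on at least 2 arrays. On simulated data, with 50 probes given each change, the fit called 25 at a log2 change of -3 and 17 at 3. At -6 and 6 it called 46 and 41. A log2 change of 3 was thus often missed. Marked spots were kept, since leaving them out removes 42.6% of spots on simazine 2 and 44.0% on control 1. Distorted areas were left out (25.5% of spots). The number of arrays limits the precision. Alternatives covered marks, position, background, scaling, dim probes, slide and each array left out. The normexp alternative used the median signal (offset 50), as no mean signal was given. Full values went to up to 4 genes per pathway and 6 other repair genes, by smallest unadjusted p of the brightest tested probe, and to genes whose probes disagreed. The result for 1 of these genes is not reported here. The slide-separated probes and members in distorted areas were picked for description after their values were seen. The repair genes and lists were chosen with earlier results of these data known.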

Additional observations from a re-analysis of the deposited data

How the results depend on the processing

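The number of repair probes past an adjusted p of 0.05 was 0 in the main fit and under 17 of 18 alternatives, and 1 (xrcc6.L) with no filter on position. With marked spots left out, with or without the distorted areas, only 1 of all tested probes passed, and without simazine 1 or simazine 3 it was 0. In such fits a count of 0 repair probes was nearly fixed in advance. The fits without control 1 or control 2 rest on 1 control array, so their counts of probes carry no weight here either. In the main fit 0.4% of all probes passed, so 0 of 41 repair probes was the likely count there as well. Past a fold of 2 with an unadjusted p under 0.05, repair probes numbered 0 in the main fit. They numbered 1 with a local deviation limit of 1, 1 with the local deviation subtracted, 4 with marked spots left out and 5 with no position filter. Each simazine array left out in turn gave 0. The median repair difference of 0.09 was between -0.08 (without control 2) and 0.20 (without control 1). With normexp it was 0.14 while the median of all probes moved to 0.21, so that the repair median was then below that of all probes. Other repair probes past the adjusted threshold numbered 0 in the main fit, 2 with no position filter, 1 with slide as a block and 1 with detection required on all arrays; these alternatives were applied to that list after the data were seen. All probes past the adjusted threshold numbered 108, against 188 after subtraction, 1 with marked spots left out, 1 with marked spots and distorted areas both left out, 43 with no filter on dim probes, 372 with no position filter, 17 with normexp, 258 with slide as a block and 0 to 53 with an array left out. With a fold of 2 and an unadjusted p under 0.05 there were 824, against 512 at a limit of 0.3, 1437 at a limit of 1, 1992 after subtraction, 2460 with marked spots left out, 2979 with no position filter, 412 with normexp, 505 with detection on all arrays and 706 to 1533 with an array left out; the causes were not tested. Over 34 named genes and 656 values under alternatives, 59 values had another sign than in the main fit, 13 genes kept 1 sign throughout, and 4 values passed the threshold, all of dclre1a.L, whose difference lay between -2.50 and -2.28. The labels share no replicate number between the groups, so no fit paired by number was made; the slides, each with arrays of both groups, served as the block above.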
